A study of Mus musculus with 12 samples.

Results

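The interferon-inducible GTPases described here are 9 mouse genes: the guanylate-binding proteins Gbp2, Gbp3 and Gbp4, and the immunity-related GTPases Irgm1, Irgm2, Igtp, Tgtp1, Ifi47 and Iigp1. They were found as the spots annotated to these genes, which gave 9 spots of the 22393 on the array, 1 spot for each of 9 genes among the 16504 annotated. All 9 had a value on each of the 12 arrays, passed the filter on empty values and stood among the 17217 features tested. The genes were chosen by their ratios in these same arrays, with Gbp3 as the lead, so their values for the 3 drugs and for pioglitazone against telmisartan are a description and carry no test.

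Mouse cells in culture were treated with the PPAR-gamma agonist pioglitazone, a thiazolidinedione used in diabetes, with telmisartan or with irbesartan, and each drug was set against vehicle-treated cells. Telmisartan and irbesartan block the receptor of angiotensin II (type 1), and the title of the series names such blockers as activators of PPAR-gamma, the nuclear receptor that drives fat cell genes. There were 4 arrays of 2 channels for each drug, and drug RNA was in channel 1 on odd-numbered arrays and in channel 2 on even-numbered ones. Both sides were pools of RNA from 3 cultures, and the labels give no cell type, dose or time. Whether 1 pool served all 4 arrays of a drug, or 1 vehicle RNA all drugs, is not stated either, so the errors and p-values below measure how far arrays differ, and this may be technical.

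Guanylate-binding proteins and immunity-related GTPases are made in mouse cells exposed to interferon, above all interferon gamma. Interferon gamma acts through its receptor and the kinases Jak1 and Jak2 on genes with a GAS element, while type I interferon also acts through a complex with Stat2 and Irf9 on genes with an interferon-stimulated response element (ISRE). The proteins gather on the membranes of vacuoles that hold parasites or bacteria. The effector immunity-related GTPases load onto such vacuoles, and the regulatory ones, Irgm1, Irgm2 and Igtp, stay on the cell's own membranes and keep the effectors inactive there.

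The promoters of 4 members are shown because they hold the letters of these elements just before the start of the gene, in 3 of the members with the largest differences between the drugs and in Tgtp1, whose ratio stayed near 0. RefSeq windows (GRCm38.p6) of 300 bases, 250 before the start site and 50 from it on, matched 7 of the 9 members by gene ID. Sequences run 5′ to 3′ on the gene's strand, and capitals mark each match to GAAANNGAAA, a pair of ISRE half-sites, or to TTCNNNGAA, the GAS core, searched on both strands.
Gbp3, chr3:142559794-142560093, plus strand: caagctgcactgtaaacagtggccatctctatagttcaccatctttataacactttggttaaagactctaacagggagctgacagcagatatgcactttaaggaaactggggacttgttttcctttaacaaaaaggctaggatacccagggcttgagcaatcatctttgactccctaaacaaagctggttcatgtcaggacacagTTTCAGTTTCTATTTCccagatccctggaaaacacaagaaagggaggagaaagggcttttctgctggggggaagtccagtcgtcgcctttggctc
Irgm2, chr11:58214727-58215026, plus strand: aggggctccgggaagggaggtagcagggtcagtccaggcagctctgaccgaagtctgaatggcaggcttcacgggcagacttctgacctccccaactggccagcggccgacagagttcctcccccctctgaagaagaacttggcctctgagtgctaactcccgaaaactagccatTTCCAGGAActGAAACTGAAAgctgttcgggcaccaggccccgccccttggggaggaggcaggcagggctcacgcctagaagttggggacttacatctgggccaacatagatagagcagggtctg
Igtp, chr11:58199306-58199605, plus strand: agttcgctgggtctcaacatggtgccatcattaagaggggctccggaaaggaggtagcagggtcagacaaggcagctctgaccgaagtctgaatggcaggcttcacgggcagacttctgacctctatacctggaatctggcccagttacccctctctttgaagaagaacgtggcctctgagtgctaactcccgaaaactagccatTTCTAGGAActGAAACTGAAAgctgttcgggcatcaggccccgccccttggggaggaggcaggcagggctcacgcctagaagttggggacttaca
Tgtp1, chr11:48992197-48992496, minus strand: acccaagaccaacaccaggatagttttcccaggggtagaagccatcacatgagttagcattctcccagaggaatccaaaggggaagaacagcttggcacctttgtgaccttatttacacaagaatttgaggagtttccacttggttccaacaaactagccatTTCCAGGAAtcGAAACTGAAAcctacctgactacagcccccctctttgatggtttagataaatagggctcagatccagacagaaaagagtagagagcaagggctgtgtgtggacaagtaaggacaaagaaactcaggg

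Counted back from the start site, the Gbp3 window held 2 ISRE pairs, at bases 45 to 36 and 39 to 30, which overlap each other and form the run TTTCAGTTTCTATTTC. A second Gbp3 window, for another start site, held neither element. In Irgm2, Igtp and Tgtp1 a GAS core stood just ahead of an ISRE pair with the same letters, GAAACTGAAA. The GAS core began 75 bases before the start in Irgm2, 45 in Igtp and 88 in Tgtp1. Gbp2 held 1 ISRE pair, TTTCACTTTC, at bases 59 to 50, and Irgm1 held 2 overlapping pairs at bases 30 to 21 and 24 to 15, while Ifi47 held neither element. No GAS match overlapped an ISRE match. An ISRE pair was thus in 6 of the 7 members with a window and a GAS core in 3, where 3.44% and 8.3% of 32851 RefSeq mouse windows held them, and 0.454% held both. These are matches of letters, and whether they bear on the ratios below was not tested. Gbp2 and Tgtp1, with values near 0, carry elements as Gbp3 and Irgm2 do. Gbp4 and Iigp1 had no window, so their elements are not known here. The windows of Igtp and Irgm2, which are direct neighbours on chromosome 11, share a run of 61 bases.

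Values are log2 ratios of drug over vehicle, and a value of -1 means that the drug side had 0.5 of the vehicle signal. The sources used here do not state which channel is the numerator. The likely reading, channel 2 over channel 1, was used, because it puts 9 of 12 PPAR-gamma target genes that differed at least 1.5-fold on pioglitazone arrays above 0. The other 3, Adipoq, Lpl and Cidec, lay below 0, and with the opposite reading every sign below would turn. The table holds ratios and no intensities, so the level of no gene is known, nor whether a gene with ratios near 0 was expressed. Empty spots made up 7.467% to 20.17% of an array. In RNA from whole cultures, fewer cells of a type and less RNA per cell cannot be told apart.

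Among the guanylate-binding proteins, which assemble on membranes around pathogens, Gbp3 had the widest spread of values between the drugs. On arrays 1 to 4 it read -1.03, -1.03, -1.13 and -0.87 with pioglitazone, 0.42, 0.61, 0.45 and 0.52 with telmisartan, and -0.26, -0.16, -0.31 and -0.21 with irbesartan. The 3 sets did not overlap: pioglitazone was lowest, irbesartan was below 0 on all its arrays, and telmisartan was above 0 on all of its own. The fitted value with pioglitazone was -1.02 ± 0.03 (SE, n = 4 arrays; 95% interval -1.09 to -0.95), a 2.02-fold lower signal than with vehicle. With telmisartan it was 0.50 ± 0.03 (0.43 to 0.57), 1.42-fold higher, and with irbesartan -0.23 ± 0.03 (-0.30 to -0.16), 1.18-fold lower.

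Gbp4 was below 0 on all 12 arrays. It read -0.51, -0.83, -0.65 and -0.77 with pioglitazone, -0.08, -0.12, -0.07 and -0.23 with telmisartan, and -0.34, -0.80, -0.42 and -0.54 with irbesartan. The pioglitazone and irbesartan arrays overlapped each other, and all 8 lay below the 4 telmisartan arrays. Fitted values were -0.69 ± 0.05, -0.12 ± 0.05 and -0.53 ± 0.05 (SE) with pioglitazone, telmisartan and irbesartan, so Gbp4 was not higher with telmisartan as Gbp3 was. Gbp3 and Gbp4 have shared names in older annotation, and the spots were assigned by Entrez gene ID.

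Gbp2, whose gene lies close to Gbp3 on chromosome 3, stayed near 0. It read -0.01, 0.16, 0.02 and 0.11 with pioglitazone, -0.14, 0.05, -0.13 and -0.04 with telmisartan, and -0.19, 0.20, -0.14 and 0.16 with irbesartan. Its values followed the channel order more than the drug: with irbesartan the mean was -0.16 with the drug in channel 1 and 0.18 with it in channel 2. No fitted value of Gbp2 exceeded 0.07 in size, and the dye coefficient, 0.10 ± 0.02 (SE), was larger than each of them.

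**Figure D1:**
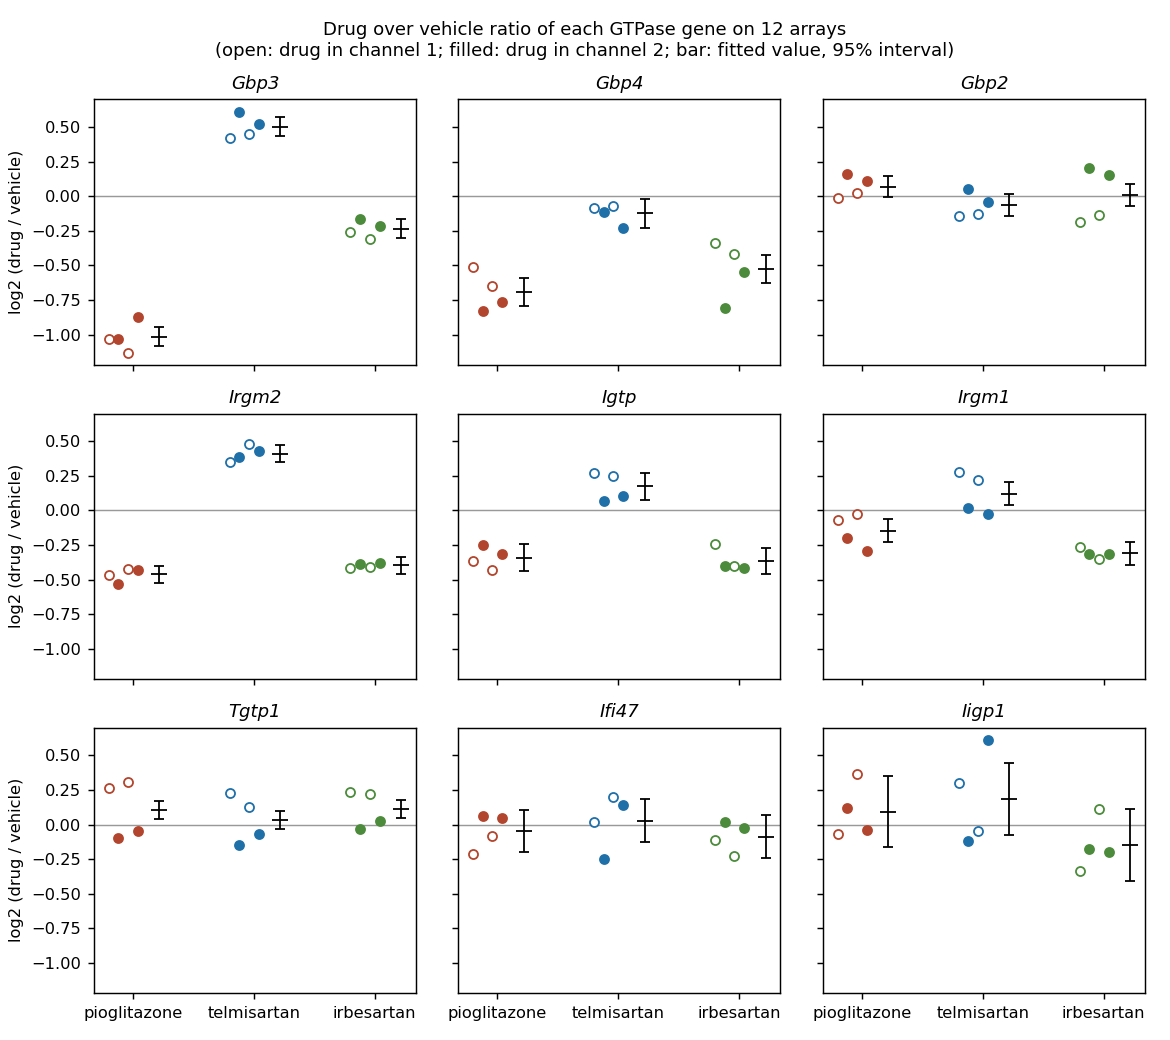
Log2 ratio of drug over vehicle (vertical axis) of each of the 9 GTPase genes on each array, by drug; open points are arrays with drug RNA in channel 1, filled points those with it in channel 2, and bars are the fitted value with its 95% interval. Gbp3 runs between -1.13 and -0.87 with pioglitazone and between 0.42 and 0.61 with telmisartan, Irgm2 shows the same order of pioglitazone and telmisartan over a smaller range, and the arrays of Gbp2, Tgtp1, Ifi47 and Iigp1 lie on both sides of 0.

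Of the regulatory immunity-related GTPases, Irgm2 came closest to the order seen in Gbp3. With pioglitazone it read -0.47, -0.53, -0.42 and -0.43, with telmisartan 0.35, 0.38, 0.48 and 0.43, and with irbesartan -0.41, -0.39, -0.41 and -0.38. All telmisartan arrays lay above 0, and the pioglitazone and irbesartan arrays lay below 0, with both drugs at much the same place. Its fitted values were -0.46 ± 0.03 with pioglitazone (1.38-fold lower), 0.41 ± 0.03 with telmisartan (1.33-fold higher) and -0.40 ± 0.03 with irbesartan (1.32-fold lower). The order of the channels made almost no difference to Irgm2, whose dye coefficient was -0.0015 ± 0.02 (SE).

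Igtp, the neighbour of Irgm2, had the same signs at a smaller size with telmisartan. It read -0.37, -0.25, -0.43 and -0.32 with pioglitazone, 0.27, 0.07, 0.25 and 0.10 with telmisartan, and -0.24, -0.40, -0.40 and -0.42 with irbesartan. Fitted values were -0.34 ± 0.04, 0.17 ± 0.04 and -0.37 ± 0.04 (SE) with pioglitazone, telmisartan and irbesartan. The telmisartan arrays again stood apart above 0.

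Irgm1, which controls its relatives on cell membranes and takes part in autophagy in mice, gave smaller values. It read -0.07, -0.20, -0.03 and -0.29 with pioglitazone, 0.28, 0.02, 0.22 and -0.03 with telmisartan, and -0.27, -0.31, -0.35 and -0.31 with irbesartan. Here irbesartan gave the lowest fitted value, -0.31 ± 0.04, against -0.15 ± 0.04 for pioglitazone and 0.12 ± 0.04 for telmisartan (SE). With telmisartan 3 of 4 arrays were above 0, and the 2 arrays with the drug in channel 1 were the high ones. Without telmisartan array 1 or 3 the telmisartan value was 0.09 or 0.11, and without pioglitazone array 4 the pioglitazone value was -0.12, in each case no longer past the threshold given below. The telmisartan value also missed it in a fit of the telmisartan arrays alone.

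Of the effector immunity-related GTPases, Tgtp1 and Ifi47 had fitted values of at most 0.11 in size, and Iigp1 varied too much between arrays to be placed. Tgtp1 read 0.26, -0.10, 0.31 and -0.05 with pioglitazone, 0.23, -0.15, 0.12 and -0.07 with telmisartan, and 0.24, -0.03, 0.22 and 0.02 with irbesartan. Every array with the drug in channel 1 was above every array with it in channel 2, and the dye coefficient of -0.15 ± 0.02 (SE) exceeded each drug's fitted value, the largest being 0.11 ± 0.03 with irbesartan. Without pioglitazone array 3 or irbesartan array 4 that drug's value was 0.09 and lost its call. Tgtp1 has a near-identical neighbour, Tgtp2, and probe sequences were not used here, so the spot may read both. For the other members too, it was not checked whether a spot also reads related genes.

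Ifi47 read -0.22, 0.06, -0.08 and 0.05 with pioglitazone, 0.02, -0.25, 0.20 and 0.14 with telmisartan, and -0.11, 0.02, -0.23 and -0.03 with irbesartan. Its fitted value with telmisartan was 0.03 ± 0.07 (SE), and without telmisartan array 2, the low one, it was 0.14 and passed the threshold given below. Iigp1, an effector that loads onto vacuoles of the parasite Toxoplasma in mouse cells, was the least precise member. It read -0.07, 0.12, 0.37 and -0.04 with pioglitazone, 0.30, -0.12, -0.05 and 0.61 with telmisartan, and -0.33, -0.18, 0.12 and -0.20 with irbesartan. The drugs overlapped in both genes. The residual SD between arrays was 0.27 for Iigp1, higher than that of 95.8% of features, against 0.05 for Irgm2 and 0.06 for Gbp3, and its fitted values were 0.09, 0.19 and -0.15 (each ± 0.12, SE) with pioglitazone, telmisartan and irbesartan. Its 95% interval with telmisartan ran from -0.07 to 0.45 and held the telmisartan values of Irgm2, Igtp and Irgm1.

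**Figure D2:**
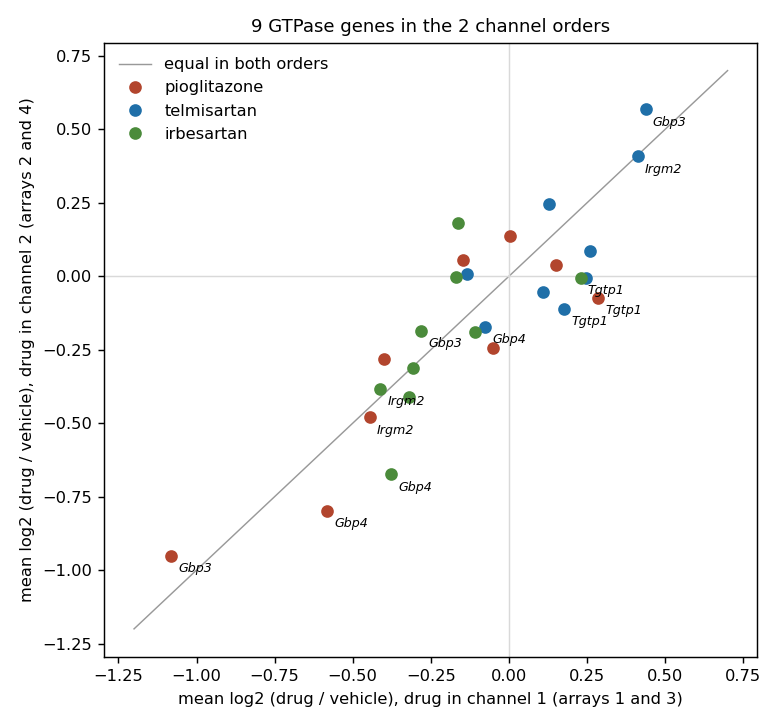
Mean log2 ratio of drug over vehicle of each GTPase gene with the drug in channel 1 (horizontal axis, 2 arrays) and in channel 2 (vertical axis, 2 arrays), colored by drug; the line marks equal values. Gbp3 and Irgm2 keep their sign and much of their size in both orders, while Tgtp1 is at 0.28 with pioglitazone in channel 1 and at -0.07 with it in channel 2.

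With limma's moderated test over all 17217 features (Benjamini-Hochberg adjusted p under 0.05), pioglitazone put 5 members lower (Gbp3, Gbp4, Irgm2, Igtp and Irgm1) and 1 higher (Tgtp1), beside 26.3% of features lower and 23.6% higher. Telmisartan put 4 higher (Gbp3, Irgm2, Igtp and Irgm1) and 0 lower, or 1 lower (Gbp4) at an unadjusted p under 0.05, beside 19.9% of features higher and 21.1% lower. Irbesartan put 5 lower (Gbp3, Gbp4, Irgm2, Igtp and Irgm1) and 1 higher (Tgtp1), beside 16.9% of features lower and 14.4% higher. Nothing is read from these counts, since the members were chosen by these contrasts. With no dye term the Tgtp1 calls were lost with both drugs, as were those of Irgm1 with pioglitazone and telmisartan. The median of the 9 members was -0.15 with pioglitazone, 0.12 with telmisartan and -0.23 with irbesartan, where the median over all features was 0.0047, 0.005 and 0.003. By role, the median was -0.69, -0.06 and -0.23 for the guanylate-binding proteins, -0.34, 0.17 and -0.37 for the regulatory genes, and 0.09, 0.03 and -0.09 for the effector genes, in the order pioglitazone, telmisartan and irbesartan.

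Pioglitazone was set directly against telmisartan in the same fit. Gbp3 differed by -1.52 ± 0.04 (SE; 95% interval -1.62 to -1.42), which is a 2.87-fold lower ratio with pioglitazone than with telmisartan and the second lowest of 17217 features. Irgm2 differed by -0.87 ± 0.04 (-0.96 to -0.78), at rank 30 from the lowest. Gbp4 followed with -0.57 ± 0.07, Igtp with -0.51 ± 0.06 and Irgm1 with -0.27 ± 0.05 (SE). These 5 were lower past the threshold, beside 8.60% of features lower, and 0 members were higher, or 1 (Gbp2, 0.13 ± 0.05) at an unadjusted p under 0.05, beside 6.07% higher. The values of the remaining members were 0.07 for Tgtp1 (95% interval -0.02 to 0.16), -0.07 for Ifi47 (-0.29 to 0.14) and -0.09 for Iigp1 (-0.46 to 0.27). For Gbp4 the fitted values of both drugs were below 0, while for Gbp3, Irgm2, Igtp and Irgm1 the drugs lay on opposite sides of vehicle.

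**Figure D3:**
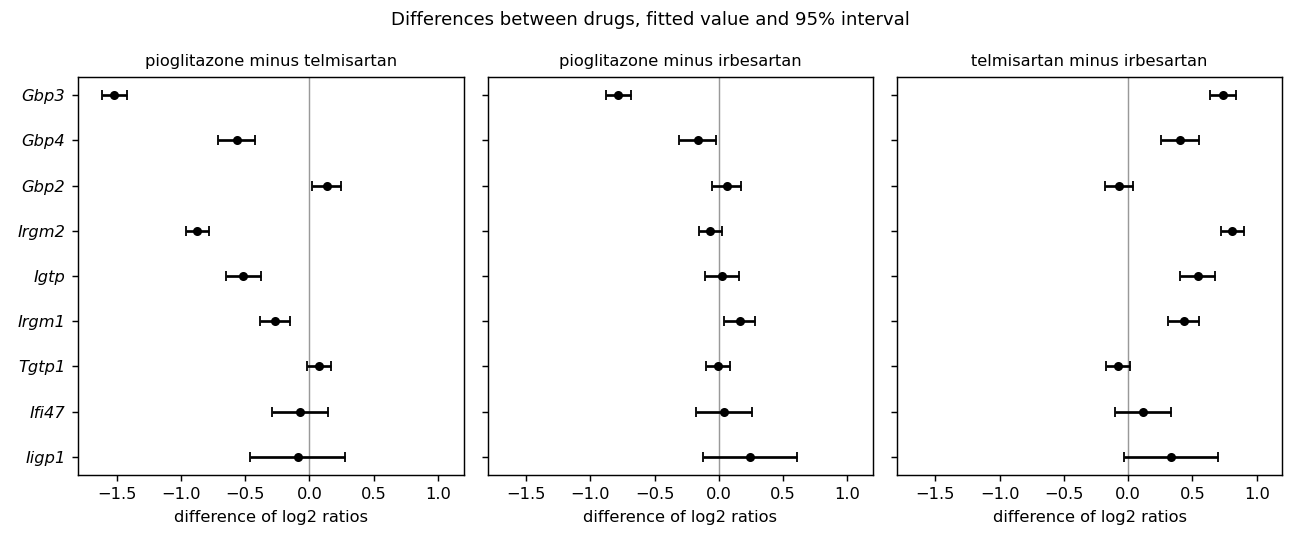
Fitted log2 difference (horizontal axis) with its 95% interval for each GTPase gene between pairs of drugs. Pioglitazone minus telmisartan is -1.52 for Gbp3 and -0.87 for Irgm2, telmisartan minus irbesartan is 0.74 and 0.81 for the same genes, and in pioglitazone minus irbesartan Gbp3, at -0.78, stands apart from the other members.

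The receptor blockers, telmisartan and irbesartan, were set against each other in the same way. Telmisartan exceeded irbesartan by 0.81 ± 0.04 in Irgm2 (95% interval 0.72 to 0.90), by 0.74 ± 0.04 in Gbp3 (0.64 to 0.84), by 0.54 ± 0.06 in Igtp, by 0.43 ± 0.05 in Irgm1 and by 0.40 ± 0.07 in Gbp4 (SE). Between pioglitazone and irbesartan, Gbp3 differed by -0.78 ± 0.04 (-0.88 to -0.68), whereas Irgm2 differed by -0.07 (-0.15 to 0.02) and Igtp by 0.03 (-0.11 to 0.16). The intervals of Irgm2 and Igtp thus kept their pioglitazone and irbesartan values within 0.16 of each other on the log2 scale. Irgm1 differed by 0.16 (0.04 to 0.28) and Gbp4 by -0.16 (-0.31 to -0.02), intervals without 0, though neither passed the threshold. Both passed it under some of the alternatives given at the end. All 3 drugs may share 1 vehicle RNA, which the labels leave unsaid, and their values are given side by side for that reason.

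Of 991 features with values on all 12 arrays and a fitted size of at least 0.58 with some drug, 5 followed Gbp3 most closely. The 12 arrays share a drug, and may share RNA, in groups of 4. Over them Pearson's r was 0.97 for Fbln5, a matrix protein of elastic fibres, and 0.97 for the aldo-keto reductase Akr1c14. It was 0.96 for the receptor Mrgprf, 0.95 for Cd55, which protects cells from complement, and 0.95 for the kinase Sgk1. None of these is a listed interferon target. With telmisartan none of the 5 reached the position of Gbp3, and the highest was Cd55 at 0.05. Fbln5 had -0.95 with pioglitazone, -0.46 with telmisartan and -0.64 with irbesartan, and Akr1c14 had -1.33, -0.02 and -0.42 in that order. They share with Gbp3 the order of the drugs, which the choice by r favours. They do not share the position against vehicle, which r leaves out of account.

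**Figure D4:**
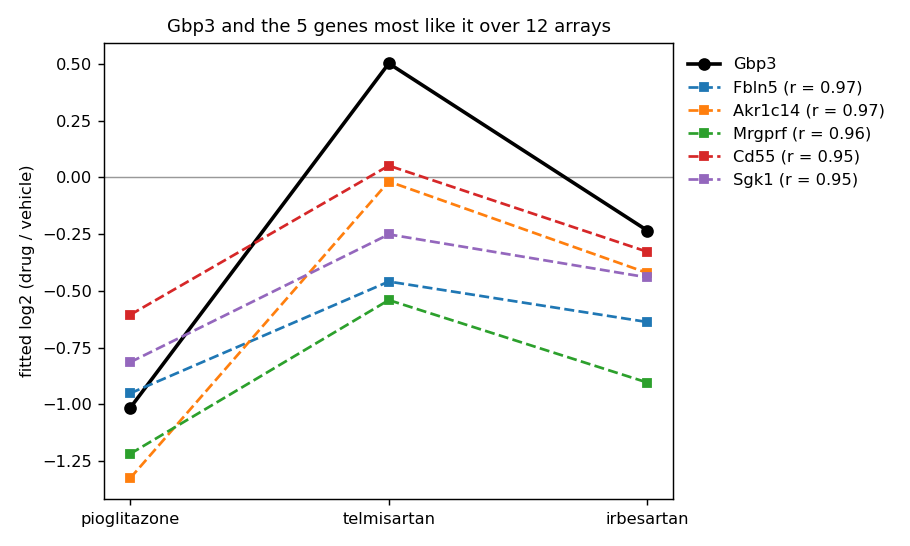
Fitted log2 ratio of drug over vehicle (vertical axis) with each drug for Gbp3 (black) and the 5 genes whose values followed it most closely over 12 arrays; lines join the values of a gene. All 6 are lowest with pioglitazone and highest with telmisartan, an order that the choice by correlation favours. With telmisartan Gbp3 is at 0.50 and the next, Cd55, at 0.05.

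The other genes of the pathway were taken from 8 lists with 95 measured genes, drawn up with earlier results of these arrays known. With pioglitazone 14 rose and 36 fell past the threshold, where 24.3% of 13950 genes rose and 26.8% fell. Telmisartan raised 21 and lowered 26 of the 95 (21.0% and 21.2% of all genes), and irbesartan raised 7 and lowered 34 (15.4% and 17.4%). Pioglitazone against telmisartan gave 6 higher and 16 lower (6.20% and 9.22%). The median over the 95 was -0.04, -0.04 and -0.10 with pioglitazone, telmisartan and irbesartan, against 0.0027, 0.0063 and 0.0022 over all genes.

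On the side of the ligand and receptor, the gene of interferon gamma itself, Ifng, had values of 0.01, -0.04 and -0.07 with pioglitazone, telmisartan and irbesartan. Ifngr1, a chain of its receptor, fell by 0.15 with pioglitazone (limma adjusted p = 0.00517) and by 0.26 with telmisartan (adjusted p = 0.000206) and stood at 0.00 with irbesartan. Jak1, the kinase on the receptor, fell by 0.53, 0.42 and 0.46 with pioglitazone, telmisartan and irbesartan (adjusted p = 1.88e-06, 1.89e-05 and 1.23e-05). Socs1, an inhibitor of the pathway, fell by 0.56, 0.43 and 0.32, and Ptpn2, a phosphatase that acts on Jak1, rose by 0.41, 0.38 and 0.17, with the drugs in the same order. In Ifngr1, Jak1, Socs1 and Ptpn2 telmisartan lay on the same side of vehicle as pioglitazone. Whether the signalling genes bear on the values of the members was not tested. Irf1, a transcription factor induced by interferon gamma, rose by 0.09 with pioglitazone (adjusted p = 0.0167) and had -0.06 and -0.04 with telmisartan and irbesartan. Ifng, Ifngr1 and Irf1 were named for their role, after their values were seen.

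Several targets of type I interferon were higher with telmisartan. Of 22 measured targets, telmisartan raised 9 and lowered 2, irbesartan raised 2 and lowered 12, and pioglitazone raised 3 and lowered 7. Over all genes, 21.0% rose and 21.2% fell with telmisartan, 15.4% and 17.4% with irbesartan, and 24.3% and 26.8% with pioglitazone. Pioglitazone against telmisartan gave 2 higher and 7 lower, beside 6.20% and 9.22% of all genes. Ifit3, a member of a family of antiviral proteins, fell by 0.80 with pioglitazone, rose by 0.41 with telmisartan and fell by 0.80 with irbesartan (limma adjusted p = 5.71e-07, 0.000167 and 1.37e-06). Isg15, a ubiquitin-like modifier, was at 0.11 with pioglitazone (adjusted p = 0.103), rose by 0.92 with telmisartan (adjusted p = 2.16e-07) and fell by 0.26 with irbesartan (adjusted p = 0.00263). Other targets took another course. Lgals3bp rose by 0.73, 0.59 and 0.30 with pioglitazone, telmisartan and irbesartan, and Ifitm3 fell by 0.60, 0.35 and 0.50 in that order. Usp18, which removes Isg15 from proteins, rose with all 3 drugs, by 0.22, 0.66 and 0.33. Irf9, the DNA-binding part of the ISRE complex, had -0.28 with pioglitazone (adjusted p = 0.0581) and 0.29 with telmisartan (adjusted p = 0.0561), a difference of -0.57 (adjusted p = 0.033). With irbesartan Irf9 fell by 0.37 and its partner Stat2 by 0.46.

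Of 4 other immunity-related or large interferon-inducible GTPases measured, only the large GTPase Mx2 passed the threshold. Of all genes, 24.3% rose and 26.8% fell with pioglitazone, 21.0% and 21.2% with telmisartan, and 15.4% and 17.4% with irbesartan. Mx2 rose by 0.14 with pioglitazone, rose by 0.70 with telmisartan and fell by 0.18 with irbesartan (limma adjusted p = 0.0426, 1.12e-06 and 0.0192). In the same order Mx1 had 0.00, 0.02 and 0.03, Irgc1 0.08, 0.05 and 0.08, and Irgq 0.03, -0.23 and 0.20. Between pioglitazone and telmisartan Mx2 differed by -0.57 ± 0.07 (SE; adjusted p = 0.000509). Of 5 other guanylate-binding proteins measured, 0 rose with telmisartan, also at an unadjusted p under 0.05, and 3 fell, Gbp5 by 0.21, Gbp11 by 0.19 and Gbp9 by 0.12. Gbp5 also fell with pioglitazone, by 0.22 (adjusted p = 0.000132).

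Antigen presentation genes are further targets of interferon gamma, and with pioglitazone 10 of 16 measured fell and 1 rose. The counts in this paragraph stand beside the shares of all genes. These were 26.8% lower and 24.3% higher with pioglitazone, 21.2% and 21.0% with telmisartan, and 17.4% and 15.4% with irbesartan. With pioglitazone the peptide transporter genes Tap2 and Tap1 fell by 0.52 and 0.41, and Psmb9, a subunit of the immunoproteasome, fell by 0.43. Telmisartan lowered 6 and raised 1, the class I gene H2-K1, which rose with each drug by 0.24 to 0.26. Pioglitazone against telmisartan gave 1 lower of the 16 and 0 higher, beside 9.22% and 6.20% of all genes. At an unadjusted p under 0.05 this comparison gave 6 lower and 2 higher. Of 16 other interferon gamma targets, 3 rose and 5 fell with pioglitazone, 4 rose and 4 fell with telmisartan, and 0 rose (1 at an unadjusted p under 0.05) and 6 fell with irbesartan. C1s1, a complement protease, fell by 0.96, 0.48 and 0.49, and Vcam1, an adhesion receptor for leukocytes, by 0.70, 0.55 and 0.57, with pioglitazone, telmisartan and irbesartan. Bst2, which tethers viruses to the cell, was at -0.40 with pioglitazone, 0.24 with telmisartan and -0.33 with irbesartan, each past the threshold. Of 11 genes of the autophagy conjugation machinery, which places the GTPases on vacuoles, 3 rose and 4 fell with pioglitazone, 3 and 4 with telmisartan, and 2 and 3 with irbesartan. Map1lc3b, a protein conjugated to membranes, fell by 0.52, 0.37 and 0.32, and Atg16l1, of the enzyme complex that attaches it, rose by 0.21, 0.10 and 0.18, with the 3 drugs in the same order.

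**Figure D5:**
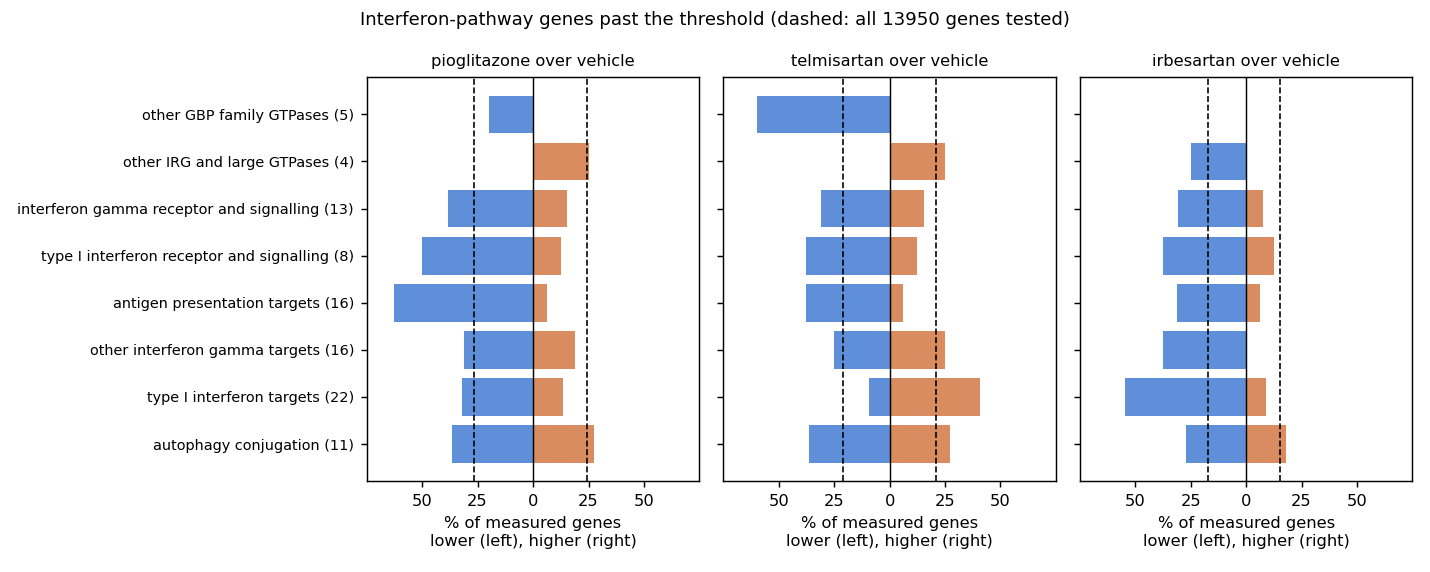
Share of the measured genes of each interferon pathway list, in percent, that were lower (left) and higher (right) past the threshold with each drug; dashed lines are the shares of all genes tested and the number of measured genes stands in brackets. Of 22 type I interferon targets, 9 were higher with telmisartan and 12 lower with irbesartan, and of 16 antigen presentation genes 10 were lower with pioglitazone.

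Markers of other cells were read beside the members. The shares of all genes past the threshold were 24.3% higher and 26.8% lower with pioglitazone. They were 21.0% and 21.2% with telmisartan, and 15.4% and 17.4% with irbesartan. None of 4 macrophage markers changed with pioglitazone (0, also at an unadjusted p under 0.05, values -0.13 to 0.12), 1 rose and 1 fell with telmisartan, and 1, Cd14, fell by 0.15 with irbesartan. Of 7 T and NK cell markers, 1 rose with pioglitazone, and with telmisartan and irbesartan 0 changed, also at an unadjusted p under 0.05. All 6 fibroblast and preadipocyte markers fell with each drug, Pdgfra by 1.41, 0.81 and 0.86 and Fn1 by 1.67, 0.80 and 0.82 with pioglitazone, telmisartan and irbesartan. Of 8 fat cell markers, 2 rose and 4 fell with pioglitazone, 1 and 2 with telmisartan, and 2 and 4 with irbesartan. Cd36, a fatty acid carrier, rose by 1.00, 0.67 and 0.63 with the 3 drugs, while Pparg fell by 1.09, 0.62 and 0.54 and the hormone gene Adipoq by 0.95, 0.44 and 0.37. Lpl fell by 1.12 and Cidec by 0.73 with pioglitazone, so several targets of PPAR-gamma lay below vehicle under the channel reading used. With telmisartan the fibroblast markers were below vehicle while Gbp3 and Irgm2 were above it. The part of a changed mix of cells in the values of the members was not tested.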

How the data were processed

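The deposited table holds 1 value for each spot on 12 arrays, taken here to be log10 ratios of its channels, a unit that no header states and that rests on a symmetric range from -2 to 2. Feature extraction, background correction and normalization are not given in the sources used here. Ratios were converted to log2 and signed as drug over vehicle from the channels in the labels. Arrays in opposite channel order had a mean r of -0.4815 before turning and those in the same order 0.7775. Left out were 471 control-like spots without a gene, and 48 sets of repeat spots were averaged. Features needed values on at least 3 of 4 arrays of each drug, which kept 17217 of 21486. One fit in limma 3.58.1 (R 4.3.3) held a coefficient per drug and a shared dye coefficient, with Benjamini-Hochberg adjustment over 17217 features and a threshold of 0.05, two-sided. For gene lists, spots of a gene were averaged and calls were adjusted over 13950 genes.

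The members and lists were chosen with earlier results of these data known. Named are every member, up to 3 genes of a list with the largest value past the threshold and 1 sign on all arrays of a drug, and the 5 features most like Gbp3. Alternatives changed the dye term, a block, scaling, filters, weights, spot averaging and the arrays used. Precision is limited by 4 arrays per drug.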

Additional observations from a re-analysis of the deposited data

Results flagged for a closer look

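Within groups of 4 arrays, the lowest and the highest value of each GTPase gene were compared with the others. Of 27 groups, 1 held an array far from the rest. Igtp had -0.24 on irbesartan array 1, where the other irbesartan arrays read -0.40 to -0.42. Chance sets apart about 1 in 20 groups.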

How the results depend on the processing

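Over 23 alternatives, 12 of which left out 1 array, no member value past the threshold changed sign, and 1236 of 1242 member values moved by less than 1 SD between arrays. These counts were largely set by the design. With balanced channel orders, another dye term, another filter or other drugs' arrays leave a drug's fitted value as it is. Leaving out 1 of its own 4 arrays can rarely move it by 1 SD. The counts are therefore no measure of robustness. Gbp3, Irgm2 and Igtp stayed past the threshold in all 23 with each drug and for pioglitazone against telmisartan. The members were chosen by these contrasts, so this is no test of them either. Gbp3 ranged from -1.05 to -0.93 with pioglitazone and from -1.55 to -1.41 for pioglitazone against telmisartan. Some other calls moved. Members higher with pioglitazone were 0 with no dye term and 2 with a dye term per drug (0 to 1 leaving out an array). Members lower with telmisartan were 1 with a dye term per drug, with values on all 12 arrays or with array weights (0 to 1 leaving out an array). Members higher with irbesartan were 0 with no dye term (0 to 1 leaving out an array), and members higher for pioglitazone against telmisartan were 1 with a dye term per drug. Tgtp1 lost its call without pioglitazone array 3 (0.09) or irbesartan array 4 (0.09), and Irgm1 without pioglitazone array 4 (-0.12). With telmisartan Gbp4 gained one without telmisartan array 2 or irbesartan array 2, and Ifi47 without telmisartan array 2 (0.14, and 0.23 for telmisartan against irbesartan). For pioglitazone against irbesartan Irgm1 gained a call with a dye term per drug, with arrays scaled or with array weights. Gbp4 gained a call in that comparison without irbesartan array 2. With no dye term Irgm1 lost its call with pioglitazone, with telmisartan and for pioglitazone against telmisartan, and Gbp4 lost its call for telmisartan against irbesartan. Irgm1 also lost its telmisartan call in a fit of those arrays alone (0.12, adjusted p = 0.0595). Over all features, 3439 passed with irbesartan and 838 for pioglitazone against telmisartan with no dye term, and 1641 passed for pioglitazone against telmisartan with arrays scaled. The causes were not tested. Residuals of arrays with the same number had r from -0.35 to 0.09 over 12 pairs, 0 above 0.1. The fit itself pushes this r below 0, so it cannot settle whether array numbers pair the arrays. With the array number as a replicate block 5 members were lower and 1 higher with pioglitazone and Gbp3 was -1.02. Keeping control-like spots and centring arrays were chosen after seeing the data. Signal over background is unknown.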
